A study of Homo sapiens with 60 samples.

Results

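Axon guidance ligands and receptors were followed through the response of a human astrocytoma cell line to 8 plant extracts. The group holds ephrins, semaphorins, slits and netrins with their Eph, plexin, neuropilin, Robo and UNC5 receptors, and its 50 genes were listed by name. Of these, 47 reached 1 CPM (counts scaled to a common library total by TMM) in at least 1 library and are described below, out of 18601 genes tested in a table of 60675. EPHA7, SEMA6A and ROBO2 stayed under 1 CPM in every library and were dropped. The 47 comprise 9 Eph receptors, 7 ephrins, 14 semaphorins, 10 plexins and neuropilins, 3 slit and Robo genes, and 4 netrin and UNC5 genes. SW1783 cells were exposed for 24 h to ethanol extracts of 4 herbs (Menthae Herba, Polygalae Radix, Saposhnikoviae Radix and Aucklandiae Radix) or 4 formulas (Soyo-san, Saengmaek-san, Okbyeongpung-san and Guibi-tang), or to dimethyl sulfoxide (DMSO) vehicle, in 60 RNA-seq libraries. High, medium and low doses were 500, 100 and 20 µg/mL, except for Aucklandiae Radix at 160, 32 and 6.4 µg/mL and Polygalae Radix at 30, 6 and 1.2 µg/mL. Vehicle, Guibi-tang, Menthae Herba, Saengmaek-san and Saposhnikoviae Radix had n = 3 libraries per dose, Polygalae Radix, Aucklandiae Radix and Soyo-san n = 2, and Okbyeongpung-san n = 1. The DMSO content of the vehicle was 0.1% by the sample labels and 2% by the series text. All groups are the same cell line, and the labels do not say that replicates were separate cultures, so p-values measure the spread between these libraries, which may be technical.

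Guidance cues steer migrating cells and growing axons by attraction or repulsion. Ephrins are membrane-anchored ligands of the Eph receptor tyrosine kinases and signal in both directions at cell contacts. Class 3 semaphorins are secreted and act through neuropilins paired with plexins, whereas the membrane-bound classes bind plexins directly. SEMA7A is anchored to the membrane by a lipid and also binds integrins. Slits are secreted ligands of Robo receptors, and netrins act through DCC, neogenin and UNC5 receptors. Astrocytes and gliomas use many of these genes in migration and invasion.

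Promoter sequence is shown for 3 genes on which the results below turn: EFNA5 and SEMA4C, which rose with the same pair of extracts, and SLIT2, which fell with 5 extracts. Each line gives the 250 bases before the RefSeq transcription start (GRCh38.p14), read 5′ to 3′ on the gene's strand, with GC boxes (GGGCGG or its complement CCGCCC) in capitals. The EFNA5 window is chr5:107670938-107671187 on the minus strand, the SEMA4C window chr2:96870081-96870330 on the minus strand, and the SLIT2 window chr4:20251655-20251904 on the plus strand.
EFNA5: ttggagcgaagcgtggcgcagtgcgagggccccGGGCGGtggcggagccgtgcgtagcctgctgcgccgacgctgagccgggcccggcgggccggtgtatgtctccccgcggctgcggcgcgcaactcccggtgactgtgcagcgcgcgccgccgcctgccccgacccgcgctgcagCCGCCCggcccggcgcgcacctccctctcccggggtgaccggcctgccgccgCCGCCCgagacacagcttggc
SEMA4C: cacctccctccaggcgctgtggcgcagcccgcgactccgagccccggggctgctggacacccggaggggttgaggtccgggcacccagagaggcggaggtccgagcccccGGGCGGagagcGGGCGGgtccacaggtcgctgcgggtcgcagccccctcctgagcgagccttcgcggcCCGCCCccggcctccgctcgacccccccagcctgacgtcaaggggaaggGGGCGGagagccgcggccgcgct
SLIT2: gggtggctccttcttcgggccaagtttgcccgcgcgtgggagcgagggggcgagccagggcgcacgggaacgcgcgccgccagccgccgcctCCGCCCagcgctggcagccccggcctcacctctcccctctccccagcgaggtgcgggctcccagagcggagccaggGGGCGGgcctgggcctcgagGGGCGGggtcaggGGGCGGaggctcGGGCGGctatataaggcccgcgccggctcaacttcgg
These windows hold 3, 4 and 5 GC boxes for EFNA5, SEMA4C and SLIT2, so the motif stood in genes that rose and in one that fell. The windows of EPHA3 and SEMA7A, not shown, held 0 and 3. A promoter entry was matched for 41 of the 47 genes; EFNB3, UNC5B, SEMA6B, NTN1, SEMA3A and NRP1 had none in the table. On either strand, a GC box was present in 30 of the 41 (73.2%), against 42.6% of 35116 RefSeq windows of the same length. The dioxin response element core GCGTG was present in 17 (41.5%, against 32.2%). The TATA box TATAAA was present in 1 (2.44%), against 10.7% of all windows. The 35116 windows were not reduced to 1 per gene, whereas each guidance gene had 1. Of the 41 guidance windows, 31 had a GC content over 60%. A match is a description of these letters only. The SEMA4C window lies inside the GENCODE 29 interval of its own gene, and whether it meets annotated exons was not checked. The SLIT2 window ends before the GENCODE 29 start of its gene at 20253260, so RefSeq and GENCODE place that start differently.

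Library totals ran from 19031101 to 37686960 expected counts. Values touching every result below are the transcript-length slope of each library and the position of the vehicle group. The slope is that of a line through log2 change from vehicle and log2 transcript length over 10336 genes, and 4 libraries fell below -0.4: Saposhnikoviae Radix high replicate 2 (-0.661), Okbyeongpung-san high (-0.593), Menthae Herba high replicate 3 (-0.507) and Saposhnikoviae Radix low replicate 3 (-0.496). Guidance transcripts are long, with a median of 3964 bases against 2206 for tested genes, with 43 of the 47 above the median tested gene, and the part of this slope in the results was not tested beyond the refits given. The median guidance gene lay below the vehicle mean in all 57 treated libraries (-0.941 to -0.078 on the log2 scale), while the vehicle libraries lay between -0.018 and 0.012. The vehicle libraries carry a library-name set of their own, so set and treatment cannot be told apart in comparisons with vehicle, and the same 3 vehicle libraries serve all extracts. Each extract's high dose was therefore also compared with its low dose. In bulk RNA, fewer cells of a type and less RNA per cell cannot be told apart. Of astrocyte markers, GFAP, AQP4, ALDH1L1, S100B and SOX2 were at or near 0 CPM, while the vehicle mean was 86.3 CPM for SOX9, 5220 for VIM and 2890 for CD44.

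**Figure D1:**
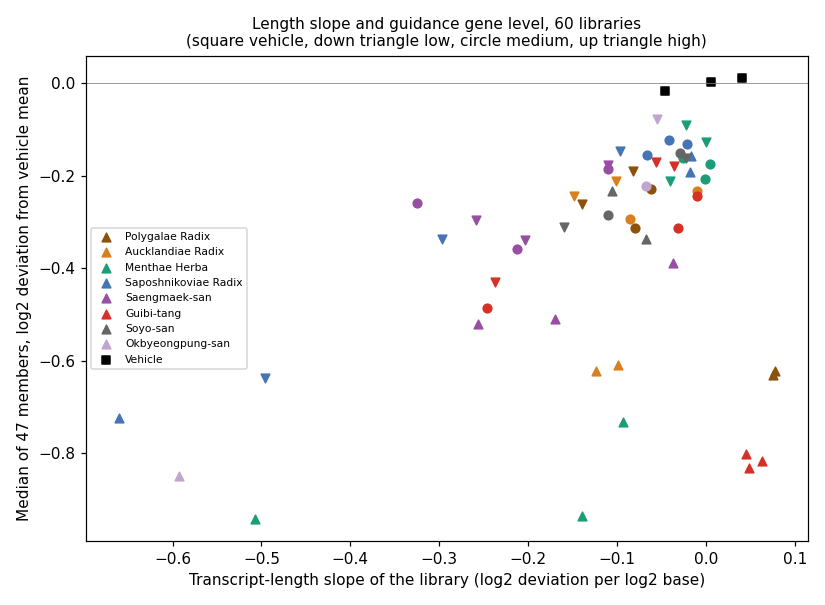
Median log2 deviation of the 47 guidance genes from the vehicle mean (vertical axis) against the transcript-length slope (horizontal axis), 1 point per library, coloured by extract and shaped by dose. The 4 libraries with slopes below -0.4 sit at the left, while the high doses of Polygalae Radix and Guibi-tang lie low at slopes above 0.

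In vehicle-treated cells, NRP1, the shared co-receptor of class 3 semaphorins and VEGF, was the most abundant of the group per transcript length, at 185 CPM per kilobase of median transcript in the vehicle mean. NRP2 followed at 91.3, the secreted ligand SEMA3C at 90.6, EPHA2 at 74.1, EPHB2 at 73.5 and PLXNB2 at 63.3. Among ephrins the order per kilobase was EFNB2 (22.7), EFNB1 (8.27), EFNA4 (4.96) and EFNA5 (2.17). The dependence receptors UNC5B (0.634) and UNC5C (0.595) and the ligand NTN1 (0.123) were low on the same scale.

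Polygalae Radix at 30 µg/mL raised ephrin ligands and lowered most semaphorins, plexins and slits. Against vehicle, 9 guidance genes rose and 26 fell by edgeR's quasi-likelihood test with Benjamini-Hochberg adjustment over all genes (adjusted p under 0.05), where 50.0% of all tested genes were called, 23.6% higher and 26.3% lower. Of 7 ephrins, 5 rose (EFNA1, EFNA4, EFNA5, EFNB1 and EFNB2) and 0 fell, and the median ephrin change was 0.74 (log2). Of 22 receptors, 15 fell and only EPHB4 rose. The median log2 change was -0.66 over the 47 genes and 0.03 over all tested genes. Against its own low dose, 11 rose and 19 fell, beside 47.7% of all genes called (21.6% higher, 26.2% lower), with the same 5 ephrins higher. The EFNA4 call against the low dose was lost in 2 of 4 refits without 1 library.

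Guibi-tang at 500 µg/mL raised 3 of 7 ephrins and SEMA4C against vehicle and lowered most other guidance genes. Against vehicle, 4 guidance genes rose (EFNA1, EFNA5, EFNB2 and SEMA4C) and 31 fell, with 52.2% of all genes called, 24.5% higher and 27.7% lower. The ephrin EFNB3 was among the 31, a call lost in 3 of 6 refits without 1 library (edgeR adjusted p up to 0.172). The median change was -0.83 over the 47 genes and 0.02 over all genes. Against the low dose, 8 rose and 25 fell, beside 53.2% of all genes called (24.6% higher, 28.6% lower). All 7 ephrins were called in that comparison, 6 higher and EFNB3 lower. The EFNA4 call was lost in 5 of 6 refits without 1 library (edgeR adjusted p up to 0.0985) and the EFNB3 call in 1 of 6 (0.0855). The Guibi-tang and Polygalae Radix high-dose libraries had length slopes of 0.0446 to 0.0632 and 0.075 to 0.0777, on the opposite side of 0 from the 4 libraries named above.

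Menthae Herba at 500 µg/mL lowered receptors of nearly every family. Against vehicle, 37 guidance genes fell and 1 rose, beside 24.0% of all genes called, 12.8% lower and 11.2% higher. All 9 Eph receptors, 9 of 10 plexins and neuropilins, and all 3 slit and Robo genes fell, and 21 of 22 receptors in all. PLXNB3 was the receptor without a call (log2 change -0.01). EFNA3 was the gene that rose. The median change was -0.80 over the 47 genes against 0.02 over all genes. Against the low dose, 31 fell and 1 rose, beside 16.5% of all genes called (6.44% higher, 10.0% lower). Without the 4 libraries of steepest slope, 1 of them from this group, 37 genes were called against vehicle and 36 against the low dose. Fitted on the compared groups alone, 29 were called against vehicle and 21 against the low dose. The EPHB6 call against vehicle was lost in 4 of 6 refits without 1 library (edgeR adjusted p up to 0.127). PLXNA3 lost its call against vehicle in 1 of 6 (0.171).

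Aucklandiae Radix at 160 µg/mL lowered 29 guidance genes and raised SEMA7A, beside 34.2% of all genes called, 17.6% lower and 16.5% higher. Of 9 Eph receptors 7 fell, and of 14 semaphorins 11 fell, whereas 1 of 7 ephrins (EFNB1) fell. The median change was -0.60, against -0.01 over all genes. Against the low dose, 22 fell and SEMA7A rose, beside 25.0% of all genes called (10.8% higher, 14.2% lower). Leaving out high replicate 2 reduced the 23 calls of that comparison to 14, and leaving out high replicate 3 or low replicate 3 reduced them to 15.

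Saengmaek-san at 500 µg/mL lowered 24 guidance genes and raised SEMA7A, beside 18.3% of all genes called, 9.25% lower and 9.05% higher. Receptors made up 17 of the 24, including 7 of 9 Eph receptors and 8 of 10 plexins and neuropilins. The median change was -0.47 (all genes 0.00). Against the low dose, 4 fell (EPHA3, EPHB2, SEMA4D and PLXNB2) and SEMA7A rose, beside 6.04% of all genes (2.66% higher, 3.38% lower). With the length slope as a covariate, 27 genes were called in that comparison, and leaving out high replicate 3 reduced its 5 calls to 1, and high replicate 1 or low replicate 3 to 2. The EPHA3, SEMA4D and PLXNB2 calls were each lost in 4 of 6 such refits (edgeR adjusted p up to 0.143, 0.139 and 0.105). Leaving out high replicate 1 or 3 reduced the 25 calls against vehicle to 14 or 15.

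Saposhnikoviae Radix at 500 µg/mL lowered 9 guidance genes and raised 0, beside 13.8% of all genes called, 4.33% lower and 9.47% higher. Soyo-san at 500 µg/mL lowered 6 and raised 0, beside 3.07% of all genes, 1.35% lower and 1.72% higher. Median changes were -0.28 and -0.29. Against the low dose, Saposhnikoviae Radix had 0 called guidance genes, beside 0.398% of all genes (0.215% higher, 0.183% lower), and 13 when high replicate 2 was left out. Soyo-san had 1, EPHA2, beside 0.538% of all genes (0.296% higher, 0.242% lower), and that call was lost in 4 of 4 refits without 1 library (edgeR adjusted p up to 0.479). Both sets of calls against vehicle moved with the fit: for Saposhnikoviae Radix to between 4 and 16 when any 1 of the 6 libraries compared was left out, and for Soyo-san to between 1 and 5. Fitted on the compared groups alone, 0 were called for Saposhnikoviae Radix and 30 for Soyo-san.

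**Figure D2:**
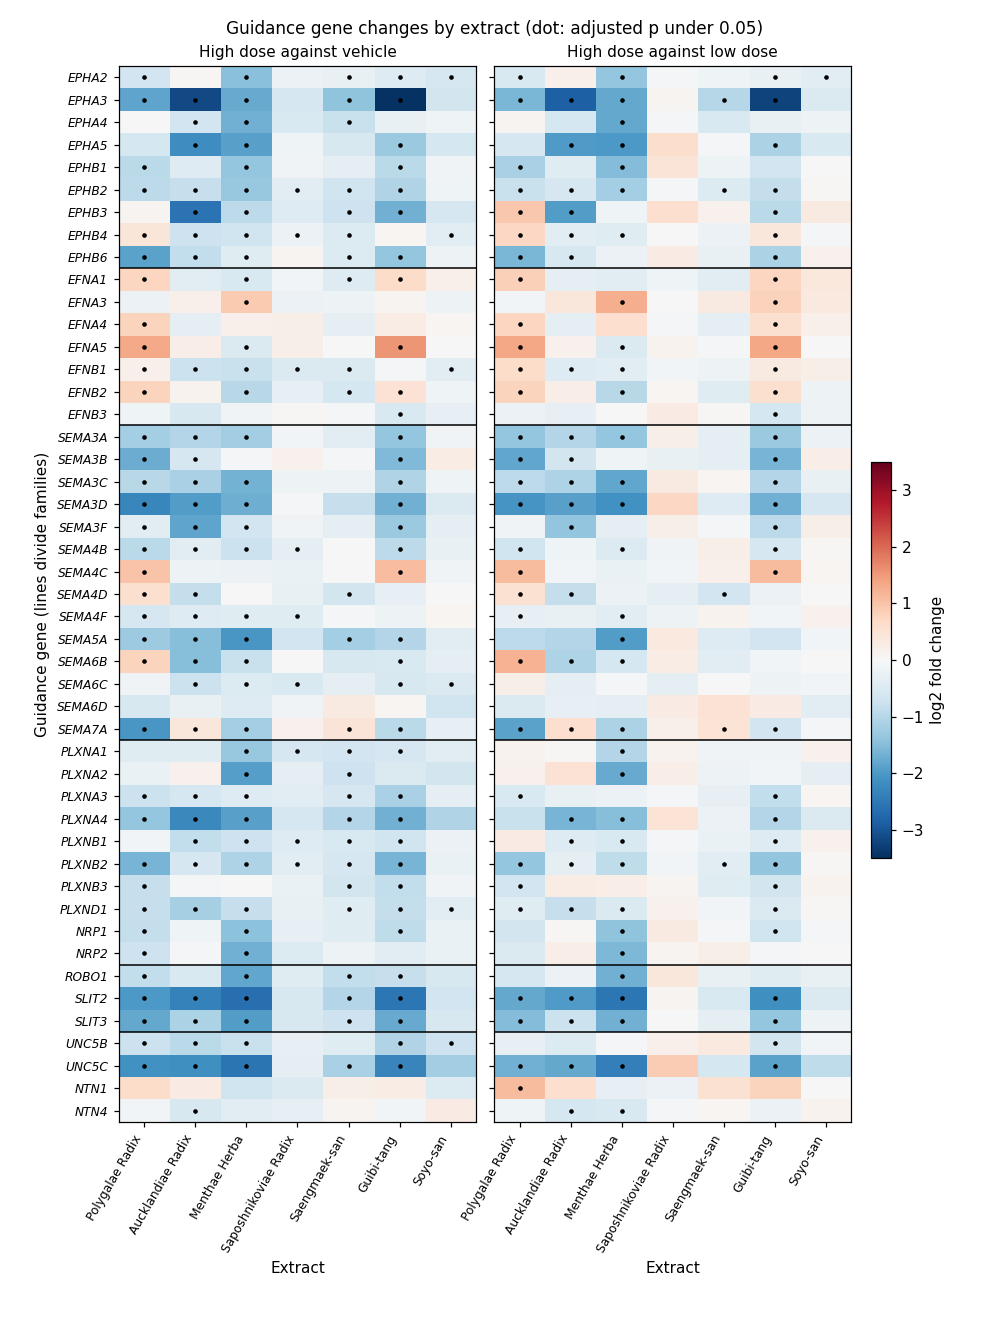
Log2 fold change of each guidance gene (rows, grouped by family) at the high dose of 7 extracts (columns), against vehicle on the left and against the low dose on the right, with a dot where the adjusted p was under 0.05. Most ephrins, but not all, are red for Polygalae Radix and Guibi-tang, while nearly all rows are blue for Menthae Herba.

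EFNA5, a lipid-anchored ligand of EphA receptors, was the ephrin with the largest rise. It stood at 11.5, 10.7 and 9.79 CPM in vehicle, at 26.7 and 26.5 CPM with high-dose Polygalae Radix, and at 31.7, 30.9 and 30.8 CPM with high-dose Guibi-tang. These 5 libraries lie above all vehicle and low-dose libraries of both extracts. The log2 changes against vehicle were 1.32 ± 0.13 (SE; edgeR adjusted p = 2.75e-11) and 1.54 ± 0.12 (edgeR adjusted p = 3.21e-14). At the medium dose EFNA5 was 13.8 and 11.6 CPM with Polygalae Radix and 11.3, 14.9 and 13.8 CPM with Guibi-tang, so that Polygalae Radix lay just above the vehicle libraries and Guibi-tang overlapped them. With high-dose Menthae Herba it was 8.32, 6.77 and 7.44 CPM, below every vehicle library (log2 change -0.51).

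EFNB2, a transmembrane ephrin known from arterial development, is the most abundant ephrin here. It measured 107, 109 and 106 CPM in vehicle, 175 and 194 CPM with high-dose Polygalae Radix, and 153, 149 and 151 CPM with high-dose Guibi-tang. The changes were 0.78 ± 0.18 and 0.49 ± 0.17 (log2, SE; edgeR adjusted p = 0.000428 and 0.0117). With high-dose Menthae Herba it was 68.7, 58.8 and 37.4 CPM, all below vehicle, and with high-dose Saengmaek-san 66.6, 76.0 and 66.2 CPM (log2 changes -0.96 and -0.62, both called).

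EFNA1, another EphA ligand, was low at 3.39, 2.96 and 2.92 CPM in vehicle. It reached 4.76 and 5.63 CPM with Polygalae Radix and 4.51, 5.32 and 4.78 CPM with Guibi-tang at the high dose, without overlap with vehicle. EFNA3 moved with another extract: from 2.40, 1.66 and 2.20 CPM in vehicle to 3.53, 3.68 and 4.60 CPM with high-dose Menthae Herba (log2 change 0.91 ± 0.24, edgeR adjusted p = 0.00478). EFNA3 and EFNA4 overlap a further coding gene annotated on the same strand, AL691442.1, so counts may be split between them. The EFNA4 rise with Polygalae Radix (0.77) lost its call when high replicate 2 was left out (edgeR adjusted p = 0.0913).

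EFNB1, a transmembrane ephrin, differed between vehicle and the low doses. It was 28.0, 28.8 and 25.3 CPM in vehicle, but 19.8 and 20.5 CPM with low-dose Polygalae Radix and 21.0, 21.2 and 21.6 CPM with low-dose Guibi-tang. High-dose Polygalae Radix (31.3 and 31.2 CPM) and Guibi-tang (27.2, 27.2 and 25.3 CPM) lay above those low doses. The log2 change of the Polygalae Radix high dose was 0.19 against vehicle and 0.63 against the low dose, and the first lost its call in 4 of 5 refits without 1 library. EFNB1 was called lower than vehicle at the low dose in 6 of 7 extracts, EPHB3 in 6, EPHB4 in 7, PLXND1 in 5, SEMA4B in 4 and UNC5B in 3. Of all genes, 0.215% (Aucklandiae Radix) to 8.31% (Saposhnikoviae Radix) were called lower at the low dose. These comparisons share their vehicle libraries. The low-dose calls summed over 7 extracts fell from 39 to 13 without vehicle replicate 2, and to 8 with no filter on low counts.

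EPHA3, an Eph receptor with high affinity for EFNA5, fell with 5 of 7 extracts. Vehicle libraries stood at 62.3, 72.0 and 73.0 CPM. High-dose Guibi-tang gave 6.48, 5.78 and 6.72 CPM, and high-dose Aucklandiae Radix 7.44 and 8.17 CPM. These falls were -3.45 ± 0.32 and -3.15 ± 0.37 (log2, SE; edgeR adjusted p = 5.38e-12 and 7.98e-09), the largest of any called guidance gene in those 2 comparisons. Polygalae Radix gave 18.6 and 19.6 CPM, Menthae Herba 27.9, 22.2 and 10.6 CPM, and Saengmaek-san 21.7, 31.6 and 24.7 CPM at the high dose, all below the vehicle range. For Saposhnikoviae Radix the high-dose libraries were 61.1, 16.1 and 60.9 CPM, and the low one is replicate 2, which has the steepest length slope.

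EPHB4, the receptor of EFNB2, moved in both directions. It was 157, 150.4 and 153 CPM in vehicle, 217 and 193 CPM with high-dose Polygalae Radix, and 86.8 and 100.3 CPM with high-dose Aucklandiae Radix (log2 changes 0.42 and -0.71, both called). High-dose Guibi-tang libraries at 159, 169 and 154 CPM overlapped vehicle, yet lay above their low dose at 118, 130 and 121 CPM (0.39 ± 0.07, edgeR adjusted p = 9.28e-06). EPHB3 fell with Aucklandiae Radix from 2.69, 3.81 and 3.18 CPM to 0.340 and 0.739 CPM. EPHB6, a receptor without kinase activity, fell with Polygalae Radix from 26.4, 25.1 and 28.1 CPM to 7.92 and 6.41 CPM (-1.88 ± 0.17, edgeR adjusted p = 5.19e-12). EPHA2, a receptor often abundant in glioma, fell with Soyo-san from 294, 291 and 296 CPM to 194 and 198 CPM (-0.58 ± 0.09, edgeR adjusted p = 8.32e-05). EPHB4 overlaps the coding gene SLC12A9 on the opposite strand and EPHA3 overlaps an antisense gene, and the strand setting of the counting is not given in the sources used here.

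SEMA7A separated the extracts by direction. Vehicle libraries read 79.3, 71.6 and 73.1 CPM. High-dose Polygalae Radix gave 17.9 and 18.5 CPM, Menthae Herba 35.2, 28.5 and 34.3 CPM, and Guibi-tang 37.4, 37.3 and 42.8 CPM, with log2 changes of -2.03, -1.19 and -0.93. High-dose Aucklandiae Radix gave 94.8 and 103 CPM and Saengmaek-san 109, 97.0 and 97.4 CPM, with changes of 0.41 ± 0.10 and 0.44 ± 0.09 (edgeR adjusted p = 0.00201 and 0.000816). All of these libraries lie outside the vehicle range. The Aucklandiae Radix rise had an adjusted p of 0.0509 (edgeR) without high replicate 3. Polygalae Radix showed steps with dose: 65.6 and 67.8 CPM at low, 46.3 and 49.6 CPM at medium, and 17.9 and 18.5 CPM at high dose.

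SEMA4C, a transmembrane ligand of plexin B receptors, rose with the same extracts as EFNA5. From 12.8, 11.5 and 10.8 CPM in vehicle it reached 25.0 and 22.0 CPM with Polygalae Radix and 24.5, 25.7 and 24.4 CPM with Guibi-tang (1.01 ± 0.13 and 1.09 ± 0.12; edgeR adjusted p = 1.78e-08 and 3.22e-10). Secreted semaphorins went the other way. SEMA3A, SEMA3C and SEMA3D fell with Polygalae Radix, Aucklandiae Radix, Menthae Herba and Guibi-tang, and SEMA3C had log2 changes of -0.96, -1.12, -1.65 and -1.06. The SEMA3C and SEMA3D calls with Polygalae Radix and with Aucklandiae Radix were each lost in 1 of 5 refits without 1 library (edgeR adjusted p up to 0.0994), and the SEMA3D call with Menthae Herba in 1 of 6 (0.0573). SEMA5A, a semaphorin with thrombospondin repeats, stood at 161, 195 and 200 CPM in vehicle and 67.0, 47.8 and 19.7 CPM with high-dose Menthae Herba (-2.05 ± 0.34, edgeR adjusted p = 1.34e-05). With high-dose Saengmaek-san it was 59.5, 116 and 70.2 CPM (-1.18), and the call was lost in 2 of 6 refits without 1 library (edgeR adjusted p = 0.0793 without high replicate 1). SEMA6C lay at 6.17, 6.57 and 6.65 CPM in vehicle and at 4.52, 4.89 and 4.06 CPM with high-dose Saposhnikoviae Radix (-0.53, edgeR adjusted p = 0.00593). SEMA6D and NTN1 were called in none of the 7 comparisons of a high dose with vehicle.

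**Figure D3:**
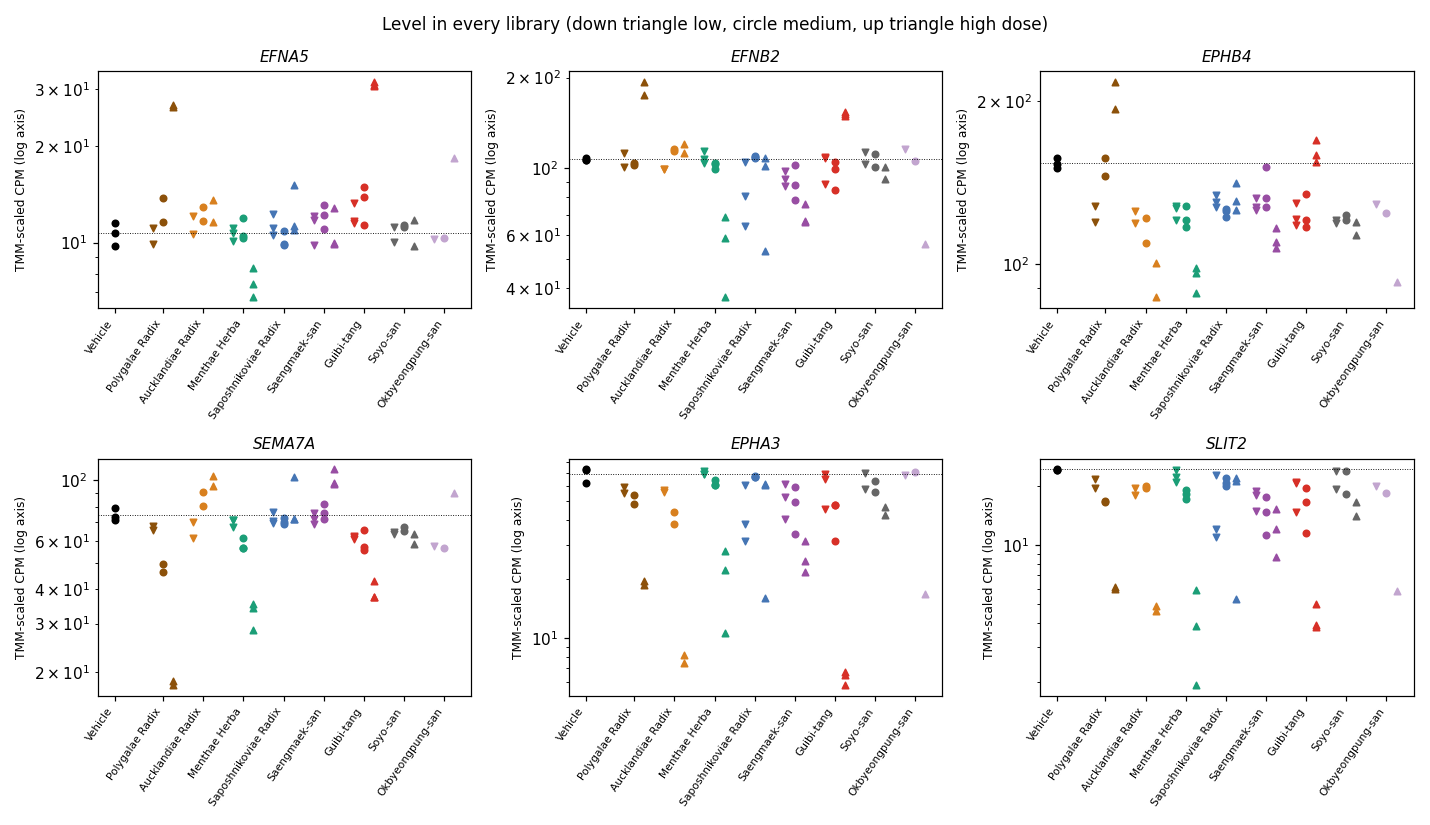
TMM-scaled CPM (log axis) of 6 guidance genes in all 60 libraries by extract, with dose shown by marker shape and the vehicle mean as a dotted line. EFNA5 and EFNB2 are high at the top dose of Polygalae Radix and Guibi-tang, where EPHA3, SLIT2 and SEMA7A are low.

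Plexins and neuropilins fell or lacked a call in every high-dose comparison with vehicle, with 0 rises. PLXNB2 and PLXND1 fell with 6 of 7 extracts, as did EPHB2, but not all of these calls held in refits without 1 library. The PLXND1 call with Soyo-san was lost in 4 of 5 such refits (edgeR adjusted p up to 0.266), and with Saposhnikoviae Radix the EPHB2 call was lost in 4 of 6 (0.422) and the PLXNB2 call in 3 of 6 (0.206). PLXNB2, a receptor of class 4 semaphorins, read 307, 310.5 and 312 CPM in vehicle, 105 and 95.5 CPM with high-dose Polygalae Radix and 98.0, 96.7 and 105 CPM with high-dose Guibi-tang (-1.62 and -1.63). PLXNA4, a co-receptor for class 3 semaphorins, fell with Aucklandiae Radix from 35, 38.8 and 43.7 CPM to 9.35 and 7.13 CPM (-2.25 ± 0.40, edgeR adjusted p = 1.97e-05). Its fall with Saengmaek-san (16, 26.2 and 15.3 CPM) lost its call in 4 of 6 refits without 1 library, with an edgeR adjusted p of up to 0.119. NRP1 was 727, 777 and 796 CPM in vehicle and 391, 296 and 165 CPM with high-dose Menthae Herba (-1.43 ± 0.26, edgeR adjusted p = 5.14e-05), and NRP2 had a log2 change of -1.69. With Aucklandiae Radix, NRP1 was 669 and 713 CPM and NRP2 284 and 279 CPM, without a call. PLXNA1 with Saposhnikoviae Radix rested on 1 library: 81.6, 36.6 and 75.3 CPM against 95.4, 95.5 and 102 CPM, with an edgeR adjusted p of 0.0312 that became 0.372 without high replicate 2.

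SLIT2, a secreted Robo ligand, was at 24.4 CPM in each of the vehicle libraries. At the high dose it was 5.97 and 6.08 CPM with Polygalae Radix, 4.59 and 4.91 CPM with Aucklandiae Radix, 5.88, 3.86 and 1.93 CPM with Menthae Herba, and 4.99, 3.83 and 3.93 CPM with Guibi-tang. The log2 changes were -2.02 ± 0.36, -2.36 ± 0.37, -2.65 ± 0.32 and -2.53 ± 0.32, with edgeR adjusted p of 1.12e-05, 2.88e-06, 4.13e-08 and 1.19e-08. All of them lie below the vehicle libraries and below the low-dose libraries of the same extract. With Saengmaek-san SLIT2 fell by 1.02, a call lost in 2 of 6 refits without 1 library (edgeR adjusted p up to 0.103). The lowest value, 1.93 CPM, belongs to the Menthae Herba library with a slope of -0.507. SLIT3 fell with the same 5 extracts, from 128, 129 and 132 CPM to 42.3, 35.2 and 22.1 CPM with Menthae Herba and 38.1, 35.5 and 40.7 CPM with Guibi-tang (-1.96 and -1.77), and its call with Saengmaek-san was lost in 1 of 6 refits without 1 library (edgeR adjusted p = 0.0724). ROBO1, their receptor, fell with Menthae Herba, Saengmaek-san, Polygalae Radix and Guibi-tang, and its log2 change with Aucklandiae Radix was -0.55 without a call. The ROBO1 call was lost in 5 of 6 refits without 1 library for Saengmaek-san (edgeR adjusted p up to 0.189), 4 of 5 for Polygalae Radix (0.131) and 3 of 6 for Guibi-tang (0.0595). UNC5C, a netrin receptor, fell with log2 changes of -2.12, -2.15, -2.56, -1.14 and -2.31 with Polygalae Radix, Aucklandiae Radix, Menthae Herba, Saengmaek-san and Guibi-tang, and the Saengmaek-san call was lost in 3 of 6 refits without 1 library (edgeR adjusted p up to 0.0829).

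Over the 7 high-dose comparisons with vehicle, which share their vehicle libraries, 18 of 47 guidance genes (38.3%) fell in 5 or more, against 3.01% of all tested genes. Falls in 6 or 7 were called for 3 (6.38%, against 1.00%). Of the 18, only EPHA3, EPHB2, SEMA4B, PLXNB2 and PLXND1 had 5 falls whose calls were lost in no refit without 1 library. The rest reached 5 only with calls lost in at least 1 such refit. With Soyo-san the SEMA6C call was lost in 5 of 5 refits, UNC5B in 3 of 5 and EFNB1 in 2 of 5. EPHA2 and PLXNA4 calls with Saengmaek-san were lost in 5 and 4 of 6 refits. The EPHB4 and PLXNB1 calls with Saposhnikoviae Radix were each lost in 4 of 6, as was EPHB6 with Menthae Herba. The genes were listed with earlier results of these data known, so these shares are descriptive. At least 1 rise was called for 11 (23.4%), against 46.7% of all genes. A rise with at least 1 extract and a fall with at least 1 other was called for 8 (17.0%), a share near the 15.4% of all genes. At medium and low doses every called guidance gene was lower than vehicle, a direction that depended on the fit: with the length slope as a covariate, 13 of 115 medium-dose and 21 of 102 low-dose calls were higher than vehicle. Polygalae Radix lowered 6 at the medium dose (4.77% of all genes called, 2.10% higher and 2.68% lower) and 4 at the low dose (1.38%, 1.12% and 0.263%). Aucklandiae Radix lowered 9 (4.53%, 2.61% and 1.92%) and 1 (0.866%, 0.651% and 0.215%). Menthae Herba lowered 6 (1.09%, 0.581% and 0.511%) and 5 (0.538%, 0.290% and 0.247%). Guibi-tang gave the highest medium-dose count, 14 (7.21%, 3.77% and 3.44%), and 5 at the low dose (2.80%, 1.82% and 0.978%). Saposhnikoviae Radix lowered 4 (1.20%, 0.704% and 0.500%) and, at the low dose, 13 (17.9%, 9.56% and 8.31%). Saengmaek-san lowered 3 (4.47%, 2.81% and 1.66%) and 5 (4.16%, 2.74% and 1.42%). Soyo-san lowered 2 (0.382%, 0.306% and 0.0753%) and 6 (1.74%, 1.06% and 0.683%). Without vehicle replicate 2, the sums over the 7 extracts fell from 44 to 25 at the medium and from 39 to 13 at the low doses. The 13 with low-dose Saposhnikoviae Radix include replicate 3, with its slope of -0.496. Okbyeongpung-san, with 1 library per dose, was not tested: EPHA3 read 68.4, 70.5 and 16.8 CPM at the low, medium and high dose, SLIT2 20.0, 18.5 and 5.86 CPM, and EFNA5 10.3, 10.3 and 18.3 CPM. Its high-dose library has a slope of -0.593.

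By their textbook recipes, Guibi-tang is prepared with Polygalae Radix and Aucklandiae Radix among its herbs, and Soyo-san with Menthae Herba. The sample labels give no composition. The high-minus-low change of each formula was compared with that of each such herb. Doses are of whole extract and differ between formula and herb, except for Soyo-san and Menthae Herba. The amount of a herb within a formula dose is not given, so the herb itself is not known to be matched in any pair. Guibi-tang differed from Polygalae Radix in 6 guidance genes, beside 4.36% of all genes (2.55% higher, 1.81% lower). EPHA3, EPHB3, SEMA3F, SEMA6B and PLXNB1 were lower with the formula and SEMA7A higher. The count fell to 2 without Polygalae Radix high replicate 2 or low replicate 3, and to 3 without Guibi-tang high replicate 1 or with no filter on low counts. The PLXNB1 call was lost in 7 of 10 refits without 1 library (edgeR adjusted p up to 0.34), the SEMA6B call in 3 and the SEMA3F call in 2. From low to high dose, EPHB3 rose with the herb by 0.94 and fell with the formula by 0.93, a difference of -1.88 ± 0.28 (edgeR adjusted p = 1.31e-05). EPHB3 had a vehicle mean of 3.23 CPM and was not called against vehicle with high-dose Polygalae Radix. At the low dose it was called lower than vehicle in 6 of 7 extracts. For EFNA5 the difference was 0.01 (95% interval -0.36 to 0.39), for SEMA4C 0.00 (-0.37 to 0.38) and for SLIT2 -0.38 (-1.36 to 0.61), none of them called. The EPHA3 difference (-1.65, edgeR adjusted p = 0.0277) lost its call in 8 of 10 refits without 1 library.

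Guibi-tang differed from Aucklandiae Radix in 14 guidance genes, beside 28.2% of all genes (12.3% higher, 15.8% lower). It was higher for 7 (EPHB3, EPHB4, EFNA1, EFNA5, EFNB1, SEMA4C and SEMA6B) and lower for 7 (EPHA2, SEMA3B, SEMA4B, SEMA7A, PLXNA3, PLXNB2 and PLXNB3). The 14 are 29.8% of the 47, a share near that of all genes. Calls were lost in 8 of 10 refits without 1 library for PLXNA3 (edgeR adjusted p up to 0.115), 6 of 10 for SEMA6B (0.171) and 3 of 10 for EPHB3 (0.337). The EFNA5 difference was 1.21 ± 0.19 (edgeR adjusted p = 2.11e-06) and the PLXNB2 difference -1.03 ± 0.17 (edgeR adjusted p = 4.52e-06). EPHA3, which fell steeply with both, was not called as different (-0.39, 95% interval -1.34 to 0.57). Soyo-san differed from Menthae Herba at the same doses of whole extract in 19 genes, all higher with the formula, beside 3.75% of all genes (2.90% higher, 0.849% lower). The SLIT2 difference was 2.04 ± 0.48 (edgeR adjusted p = 0.00748) and the EPHB2 difference 1.25 ± 0.19 (edgeR adjusted p = 1.83e-05). The SLIT2 call was lost in 2 of 10 refits without 1 library. The count of 19 fell to 9 without Soyo-san high or low replicate 1, to 11 without Soyo-san high replicate 2 or Menthae Herba high replicate 3, and to 3 on the compared groups alone.

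**Figure D4:**
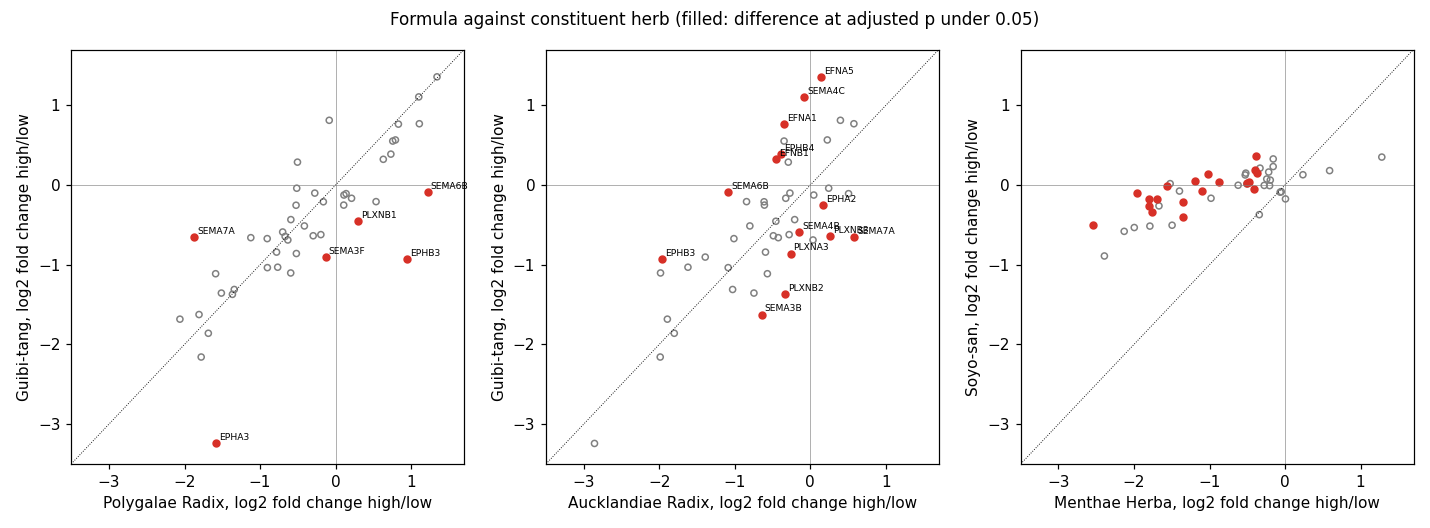
High-minus-low log2 change of the 47 guidance genes in a formula (vertical axis) against a constituent herb (horizontal axis), with filled points where the difference had an adjusted p under 0.05 and the dotted line marking equal change. Filled points number 6, 14 and 19 from left to right, and in the right panel they lie above the line.

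The wider pathway was read from 23 other family members, of which 11 were tested, and 28 signalling partners, all tested. By edgeR against vehicle, 3 partners rose and 14 fell with Polygalae Radix (60.7% called, against 50.0% of all genes), and 4 and 13 with Guibi-tang (60.7%, against 52.2%). With Aucklandiae Radix 6 rose and 5 fell (39.3%, against 34.2%), and with Menthae Herba 2 and 4 (21.4%, against 24.0%). With Saengmaek-san 1 rose and 3 fell (14.3%, against 18.3%), with Saposhnikoviae Radix 1 and 2 (10.7%, against 13.8%), and with Soyo-san 0 and 0 (3.07% of all genes). DPYSL3 and DPYSL2, collapsin response mediators acting downstream of class 3 semaphorins, fell with log2 changes of -2.37 and -1.82 with Polygalae Radix and of -1.82 and -1.76 with Guibi-tang. CFL1, the actin-severing protein cofilin, fell with changes of -1.56 and -1.41. L1CAM, an adhesion molecule that binds NRP1, fell with 6 of the 7 extracts, from -0.39 with Saposhnikoviae Radix to -1.80 with Guibi-tang on the log2 scale. SRGAP1, a GTPase-activating protein of Robo signalling, rose by 0.84 with Polygalae Radix, 0.61 with Aucklandiae Radix and 1.08 with Guibi-tang. Of the 11 other family members tested, 0 rose and 2 fell with Polygalae Radix (18.2%, against 50.0% of all genes). With Guibi-tang 4 rose and 2 fell (54.5%, against 52.2%). With Aucklandiae Radix and with Menthae Herba 2 rose and 2 fell (36.4% each, against 34.2% and 24.0%). With Saengmaek-san 0 rose and 1 fell (9.09%, against 18.3%), and with Saposhnikoviae Radix and Soyo-san 0 were called. Among them NEO1, the netrin receptor neogenin, fell with Polygalae Radix, Menthae Herba, Saengmaek-san and Guibi-tang. ROBO3 rose by 1.48 with Aucklandiae Radix, 0.68 with Menthae Herba and 0.80 with Guibi-tang.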

How the data were processed

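The values were gene-level RSEM expected counts deposited by the authors, 1 column per library for 60675 genes, and were rounded to whole numbers before testing. Per the submitters' processing notes, FastQC 0.11.9, Trim Galore 0.6.5, STAR 2.7.3a and RSEM 1.3.3 were used with hg38; the strand setting is not given in the sources used here. Library totals were 19031101 to 37686960. In R 4.3.3, edgeR 4.0.16 fitted 1 quasi-likelihood model to all 60 libraries with a mean per extract and dose (35 residual degrees of freedom), TMM scaling and a filter on low counts (minimum count 10, minimum total 15), which left 18601 genes. Genes were called at a Benjamini-Hochberg adjusted p under 0.05 over all of them. Okbyeongpung-san, with 1 library per dose, gave values only. CPM are counts scaled to a common total with TMM factors. Each library's length slope used median GENCODE 29 transcript lengths. The listed genes and pathway lists were chosen with earlier results of these data known. Values in every library were given for the 3 largest rises and 3 largest falls per high dose against vehicle. These were taken from called genes whose mean log2 CPM reached 2. Left out were EFNB1 with Saposhnikoviae Radix (log2 change -0.50) and, with Soyo-san, SEMA6C (-0.50) and EPHB4 (-0.40). Further genes were named to describe their family after their values were seen. Promoter windows came from RefSeq (GRCh38.p14). Alternatives were RLE size factors, no filter, a replicate block, a block by library-name set, the compared groups alone, DESeq2 1.42.0, and leaving out each library, where refits kept the gene filter and dispersion trend of the full fit. The fit was tested on simulated data.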

Additional observations from a re-analysis of the deposited data

Results flagged for a closer look

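The change from low to high dose differed between a formula and a constituent herb by a test of the difference itself (edgeR, Benjamini-Hochberg adjusted p under 0.05). Between Guibi-tang and Polygalae Radix it differed for 6 guidance genes (4.36% of all genes were called), a count that fell to 2 without Polygalae Radix high replicate 2 or low replicate 3. EPHB3 moved in opposite called directions there, with a difference of -1.88, but was not called against vehicle with high-dose Polygalae Radix. Between Guibi-tang and Aucklandiae Radix it differed for 14 guidance genes, 29.8% of the 47, a share near the 28.2% of all genes. Of these, 3 moved in opposite called directions from low to high dose. EPHB4 (difference 0.77) and EFNB1 (0.78) rose with the formula and fell with the herb, and SEMA7A (-1.24) fell with the formula and rose with the herb. Neither EPHB4 nor EFNB1 was called higher than vehicle with high-dose Guibi-tang. At the low dose EPHB4 was called lower than vehicle in 7 of 7 extracts and EFNB1 in 6 of 7. Between Soyo-san and Menthae Herba it differed for 19 guidance genes (3.75% of all genes were called), a count that fell to 9 without Soyo-san high or low replicate 1, to 8 with no filter on low counts and to 3 on the compared groups alone. The high doses differ between Guibi-tang (500 µg/mL) and its herbs (30 and 160 µg/mL), and dose and preparation cannot be told apart in those comparisons. For Soyo-san and Menthae Herba the doses of whole extract are equal, but the amount of the herb in the formula is not given.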

How the results depend on the processing

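No count or named gene reversed its direction under any alternative run. The settings based on the length slope were chosen after seeing the data, and the cause of the shifts below was not tested. With no low-count filter the number of guidance genes called was 3 for Saposhnikoviae Radix and 1 for Soyo-san at high dose against vehicle, 2 for Saengmaek-san and 0 for Soyo-san against the low dose, and 10 and 8 for the medium and low doses summed over 7 extracts. The formula differences then numbered 3 (Guibi-tang and Polygalae Radix), 9 (Guibi-tang and Aucklandiae Radix) and 8 (Soyo-san and Menthae Herba). Without the 4 libraries of slope below -0.4, without the 12 below -0.2, and with the slope as a covariate, Soyo-san against vehicle gave 17, 23 and 20, Saengmaek-san against low 14, 8 and 27, the medium sum 91, 100 and 115, the low sum 83, 72 and 102, and the Guibi-tang differences 10, 14 and 13 (Polygalae Radix) and 24, 27 and 28 (Aucklandiae Radix). Saposhnikoviae Radix against low gave 1 without the 4 and 5 with the covariate. Without the 12 and with the covariate, Soyo-san against low gave 4 and 8, and the Soyo-san difference 30 and 32. Fitted on the compared groups alone, Saposhnikoviae Radix and Soyo-san against vehicle gave 0 and 30, Menthae Herba and Soyo-san against low 21 and 0, and the Soyo-san difference 3. DESeq2 gave 14 for Saposhnikoviae Radix against vehicle, 8 for Saengmaek-san against low and 59 for the low sum.

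Leaving out 1 library gave 25 to 34 calls against vehicle for Polygalae Radix, 26 to 30 for Aucklandiae Radix, 36 to 38 for Menthae Herba, 4 to 16 for Saposhnikoviae Radix, 14 to 25 for Saengmaek-san, 31 to 34 for Guibi-tang and 1 to 5 for Soyo-san. Against the low dose the ranges were 24 to 25, 14 to 16, 31 to 33, 0 to 13, 1 to 5, 30 to 33 and 0 to 0 in the same order. The medium sum ran from 25 to 44, the low sum from 13 to 54, and the formula differences from 2 to 6, 11 to 13 and 9 to 25. Where 1 library was left in a group, it was assumed to vary like the other groups.

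Correlations of same-numbered deviations from the group mean ran from -0.655 to 0.649, and of differently numbered ones from -0.703 to 0.733. These ends all belong to Saposhnikoviae Radix high against low. With 2 or 3 libraries per group the deviations are tied to each other, so the correlations cannot decide whether replicate numbers pair the libraries. With a replicate block, calls against vehicle were 35, 29, 38, 10, 27, 35 and 7, against low 29, 23, 32, 0, 6, 34 and 1, the medium and low sums 46 and 39, and the differences 6, 14 and 18. A replicate block by library-name set gave 0 for Soyo-san against low. The calls of single guidance genes in the high-dose comparisons and formula differences numbered 341. Of these, 50 were lost on the compared groups alone, 63 without the filter, 3 with the replicate block and 0 with DESeq2. Over all refits of these calls without 1 library, the call was kept 1702 times and lost 321 times. Losses are given above for some genes only, so a call without a stated loss was not always kept.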
